A study of Homo sapiens with 6 samples.

Results

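The 10 genes described here encode proteins that form and rearrange disulfide bonds in the endoplasmic reticulum, where secreted and membrane proteins fold. They are AGR2, AGR3, ERO1A, ERO1B, P4HB, PDIA3, PDIA4, PDIA5, PDIA6 and TXNDC5, and they were found by gene symbol among the 17758 genes of the deposited table. AGR2, AGR3 and ERO1A were chosen by their rise in these same libraries, that is, by the log2 difference between the groups compared below, so their values are a description with no test. The other 7 were taken because they belong to the same families. Earlier results of these data were known when the members were chosen, so these 7 are not a blind draw. All 10 passed the filter on low counts.

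The RNA came from T47D cells, a human breast ductal carcinoma line that carries the oestrogen receptor. All cells had been stably transduced with a lentivirus for a short hairpin RNA. In 3 libraries, called shNC, the hairpin was a non-targeting control, and in 3 libraries, called shCUEDC1, it was directed against CUEDC1, which encodes a CUE domain protein. The labels give no number of hairpins, so an effect of the hairpin sequence and the loss of CUEDC1 cannot be told apart. The series calls the 3 libraries of a group biological replicates, but separate infections are not stated, and the p-values below measure the spread between these libraries.

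In the endoplasmic reticulum, the oxidases ERO1A and ERO1B pass electrons from protein thiols to oxygen and so recharge the protein disulfide isomerases. These isomerases, which carry thioredoxin-like domains with an active-site cysteine pair, hand the disulfide bond on to a folding client or reshuffle a wrong one. AGR2 and AGR3 are small members of the isomerase family with a single cysteine at the active site, and AGR2 is known as a secretory protein of mucus-forming epithelia and of oestrogen receptor-positive breast tumours. The other members of the family studied here differ in their clients. P4HB is the abundant general isomerase and a subunit of collagen prolyl 4-hydroxylase. PDIA3 works on glycoproteins together with calnexin and calreticulin, and PDIA4, PDIA6, PDIA5 and TXNDC5 are further soluble isomerases of the lumen.

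Library totals ranged from 18924327 to 19731609 estimated reads, and 13824 genes were tested. The hairpin target was lower in every shCUEDC1 library, with CUEDC1 at 110, 109 and 93.3 CPM in shNC 1, 2 and 3 and at 31.4, 33.8 and 32.0 CPM in shCUEDC1 1, 2 and 3, a mean change of -68.9% (CPM is the read count scaled to a common library size after TMM normalisation, with no correction for gene length). The library shNC 3 stood apart on the second principal component, which held 26.0% of the variance, so each result below is also given without it where that matters. All 8 luminal epithelial markers looked for were detected, and their summed level was 7646 to 9645 CPM in the shNC libraries and 9629 to 9769 CPM in shCUEDC1. Leukocyte markers summed to 5.98 to 6.91 CPM in the shNC libraries and 6.63 to 7.10 CPM in shCUEDC1, and endothelial markers to 0.304 to 0.454 CPM and 0.408 to 1.02 CPM. The 7 fibroblast markers summed to 49.9 to 63.0 CPM in the shNC libraries and 65.6 to 75.9 CPM in shCUEDC1, without overlap. Of the 6 that were tested, 4 differed by more than 0 and 2 by less, and 1 was called higher, where 5.19% of all genes tested were. It was COL1A1, at 0.61 on the log2 scale (edgeR adjusted p = 0.00843), but not without shCUEDC1 2 or without shCUEDC1 3 (adjusted p up to 0.0599). ACTA2 went the other way, from 24.6 to 21.0 CPM (log2 difference -0.23, edgeR adjusted p = 0.495). Without shNC 3, ACTA2 was called lower, at -0.43 (edgeR adjusted p = 5.50e-05), and 2 markers of the list were called higher. No marker of these lists was at 0 in all libraries, and the part of such cells or transcripts in the results below was not tested. In bulk RNA, fewer cells of a kind and less RNA per cell cannot be told apart.

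AGR2 (Entrez 10551) was the more abundant AGR gene. It stood at 520, 518 and 565 CPM in shNC 1, 2 and 3 and at 776, 757 and 804 CPM in shCUEDC1 1, 2 and 3. AGR2 was thus higher in every shCUEDC1 library than in any control, and shNC 3 was the highest of the controls. The group means were 534 ± 26.9 and 779 ± 24.0 CPM (SD, n = 3 each), which is 1.46-fold, or 0.54 on the log2 scale. Without shNC 3, the difference of AGR2 was 0.59.

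AGR3 (Entrez 155465), its neighbour on chromosome 7, gave fewer counts. It reached 55.5, 57.1 and 54.7 CPM in shNC 1, 2 and 3 against 88.0, 87.9 and 95.6 CPM in shCUEDC1 1, 2 and 3, again with no overlap. The means of AGR3 were 55.7 ± 1.21 and 90.5 ± 4.45 CPM (SD, n = 3 each), 1.62-fold, or 0.70 on the log2 scale. Per length, in FPKM as the authors computed it, AGR2 was 4.02 ± 0.274 times AGR3 in shNC and 3.61 ± 0.0869 times in shCUEDC1 (SD, n = 3 each). That ratio was 3.92, 3.80 and 4.32 in the shNC libraries and 3.69, 3.60 and 3.52 in the shCUEDC1 libraries. The groups did not overlap, but the gap between them was small, and shNC 3 was the highest.

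Both AGR genes lie on the minus strand of chromosome 7 (GRCh38), AGR2 from 16791811 to 16833433 and AGR3 from 16859405 to 16881987 in GENCODE v29. The sequence before their start sites is shown because it sets them apart from the other members by base composition. RefSeq (GRCh38.p14) gives these 250 bases directly before the annotated start, on the minus strand and written 5′ to 3′. The start that RefSeq gives for AGR2 lies inside the longer GENCODE span, so other starts of AGR2 are not covered. Capitals mark the TATA box letters TATAAA, which were searched on both strands.
AGR2 chr7:16805000-16805249: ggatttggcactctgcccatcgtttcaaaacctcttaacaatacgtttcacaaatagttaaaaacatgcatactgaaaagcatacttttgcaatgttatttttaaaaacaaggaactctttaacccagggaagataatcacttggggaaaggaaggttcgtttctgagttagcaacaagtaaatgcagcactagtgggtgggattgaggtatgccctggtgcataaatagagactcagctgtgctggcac
AGR3 chr7:16881984-16882233: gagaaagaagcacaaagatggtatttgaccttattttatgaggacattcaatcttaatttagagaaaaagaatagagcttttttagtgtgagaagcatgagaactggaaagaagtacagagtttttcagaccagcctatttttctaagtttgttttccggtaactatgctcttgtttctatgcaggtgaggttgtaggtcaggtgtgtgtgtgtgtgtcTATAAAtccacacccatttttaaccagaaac
G and C made up 40.4% of the AGR2 window and 36.4% of the AGR3 window, against a median of 58.0% over the 35116 RefSeq promoters of that length. Only 13.4% of promoters were lower in G and C than AGR2 and only 7.22% lower than AGR3. The AGR3 window holds TATAAA from 31 to 26 bases before the start, and 10.7% of all promoters hold these letters somewhere in the window. The AGR2 window does not hold them. Neither window holds the core of the hypoxia response element (ACGTG, both strands), which 18.5% of promoters hold, and none of the 9 members in the promoter table holds the full oestrogen response element (GGTCA, any 3 bases, TGACC), which 0.0399% of promoters hold.

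The genes beside AGR2 and AGR3 did not all behave alike. Of the 3 nearest protein-coding genes on each side, 5 were tested, 2 were called higher and 3 were not called, against 5.19% of all genes tested that were called higher (edgeR, adjusted p below 0.05). ANKMY2, the farthest of the 3 towards the short-arm end, was at 26.1, 29.7 and 28.6 CPM in the controls and 40.2, 38.1 and 41.9 CPM with CUEDC1 knocked down, a log2 difference of 0.51 (SE 0.0728, edgeR adjusted p = 0.00271). BZW2, which encodes a translation regulator with BZIP and W domains, was at 184, 182 and 213 CPM in the controls and 252, 253 and 264 CPM with CUEDC1 knocked down, a log2 difference of 0.41 (SE 0.0643, edgeR adjusted p = 0.00421). Both rises were called with any 1 library left out (highest adjusted p 0.0261 and 0.0386). TSPAN13, a tetraspanin that lies between BZW2 and AGR2, overlapped between the groups and differed by 0.05 (edgeR adjusted p = 0.638), but without shNC 3 it was called, at 0.11 (edgeR adjusted p = 0.0355). On the other side AHR, the aryl hydrocarbon receptor, differed by -0.04 and SNX13 by -0.13 (edgeR adjusted p = 0.782 and 0.155). With all 6 libraries, a gene that was not called thus lay between the called neighbours and AGR2.

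**Figure D1:**
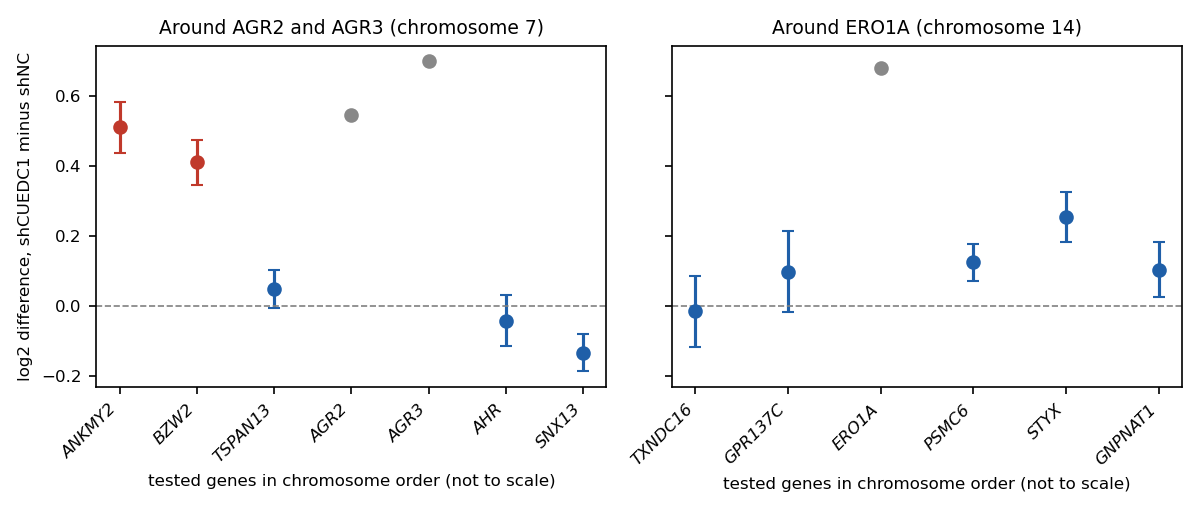
Log2 difference (shCUEDC1 minus shNC, y axis) of the tested genes nearest to AGR2 and AGR3 and to ERO1A, in chromosome order along the x axis, not to scale. Bars are the standard error of the edgeR fit, red marks a called gene, blue one that was not called, and grey the genes picked for their rise, which carry no error bar. ANKMY2 at 0.51 and BZW2 at 0.41 are the called neighbours, and TSPAN13 between them and AGR2 is at 0.05.

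Of the paired oxidases, ERO1A, picked for its rise, was higher in shCUEDC1, and ERO1B was lower but not called with all 6 libraries. ERO1A (Entrez 30001; chromosome 14 from 52639916 to 52695900, minus strand) was at 201, 216 and 214 CPM in shNC 1, 2 and 3 and at 343, 334 and 333 CPM in shCUEDC1 1, 2 and 3. The shCUEDC1 libraries lay within a narrow range far above all controls. The means were 210 ± 8.41 and 337 ± 5.32 CPM (SD, n = 3 each), 1.60-fold, or 0.68 on the log2 scale. With any 1 library left out, the difference of ERO1A lay between 0.65 and 0.70. ERO1A was picked by this difference, so the range is a description and no test.

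ERO1B (Entrez 56605; chromosome 1 from 236215555 to 236281985, minus strand) is the isoform best known from pancreas and other secretory tissues. It was at 30.6, 30.1 and 28.5 CPM in shNC 1, 2 and 3 and at 27.7, 26.6 and 25.9 CPM in shCUEDC1 1, 2 and 3. All shCUEDC1 libraries were below all controls, but the gap was small. ERO1B differed by -0.16 (95% interval -0.31 to -0.005, edgeR adjusted p = 0.186) and was not called. Without shNC 3 it was called, at -0.18 (edgeR adjusted p = 0.0485), where 13.8% of all genes tested were called lower. GENCODE places GPR137B on the opposite strand across part of ERO1B, at 44.8 CPM in the controls and 41.4 CPM with CUEDC1 knocked down, and the use of strand in counting is not given, so reads of the pair cannot be told apart with certainty.

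Per length, ERO1A exceeded ERO1B by 6.55, 7.04 and 7.58 times in shNC 1, 2 and 3 and by 12.3, 12.4 and 12.7 times in shCUEDC1 1, 2 and 3. The 2 oxidases together amounted to 3.67% ± 0.211 of the summed FPKM of the 6 isomerases P4HB, PDIA3, PDIA4, PDIA5, PDIA6 and TXNDC5 in shNC and to 5.54% ± 0.0817 in shCUEDC1 (SD, n = 3 each). ERO1A was picked for its rise, so these ratios describe the libraries and test nothing.

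The 250 bases before the RefSeq starts of the oxidase genes (GRCh38.p14, minus strand, 5′ to 3′) are shown because they carry different stress-related letters. Capitals mark ACGTG on either strand in ERO1A, and in ERO1B the letters of the endoplasmic reticulum stress response element (CCAAT, any 9 bases, CCACG), here on the opposite strand.
ERO1A chr14:52695559-52695808: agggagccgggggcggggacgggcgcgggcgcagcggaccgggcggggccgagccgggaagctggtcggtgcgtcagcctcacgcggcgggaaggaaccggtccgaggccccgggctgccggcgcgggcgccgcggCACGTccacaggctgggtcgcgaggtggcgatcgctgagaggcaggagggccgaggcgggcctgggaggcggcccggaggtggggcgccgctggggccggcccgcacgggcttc
ERO1B chr1:236281959-236282208: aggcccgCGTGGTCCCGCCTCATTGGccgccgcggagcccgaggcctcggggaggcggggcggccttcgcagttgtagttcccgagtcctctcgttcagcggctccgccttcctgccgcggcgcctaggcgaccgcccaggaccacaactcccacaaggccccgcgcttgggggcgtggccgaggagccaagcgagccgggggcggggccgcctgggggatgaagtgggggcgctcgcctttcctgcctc
The match in ERO1A lies from 114 to 110 bases before the start. The match in ERO1B lies from 243 to 225 bases before the start, and it contains a CCAAT on the same strand as the element. Only 0.074% of all promoters of this length hold the full stress response element, and ERO1B is the only 1 of the 9 members with a promoter in the table that does. The ERO1A window is 81.6% G and C, which is above 98.0% of promoters. A match is a run of letters and not a shown binding site.

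The tested genes next to ERO1A were TXNDC16 and GPR137C on one side and PSMC6, STYX and GNPNAT1 on the other. Their log2 differences ran from -0.01 for TXNDC16 to 0.25 for STYX, with edgeR adjusted p from 0.949 for TXNDC16 to 0.0504 for STYX, so edgeR called no gene here with all 6 libraries. The unadjusted edgeR p was below 0.05 for PSMC6 and STYX (0.0381 and 0.00505). The share of all genes tested below that p is not given here, so this is a description only. Without shNC 3, PSMC6, STYX and GNPNAT1 were called higher, at 0.17, 0.33 and 0.21 (edgeR adjusted p = 0.00154, 3.26e-06 and 2.94e-04), where 14.3% of all genes tested were called higher, and the difference of TXNDC16 turned to 0.11. TXNDC16 is itself a member of the isomerase family.

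**Figure D2:**
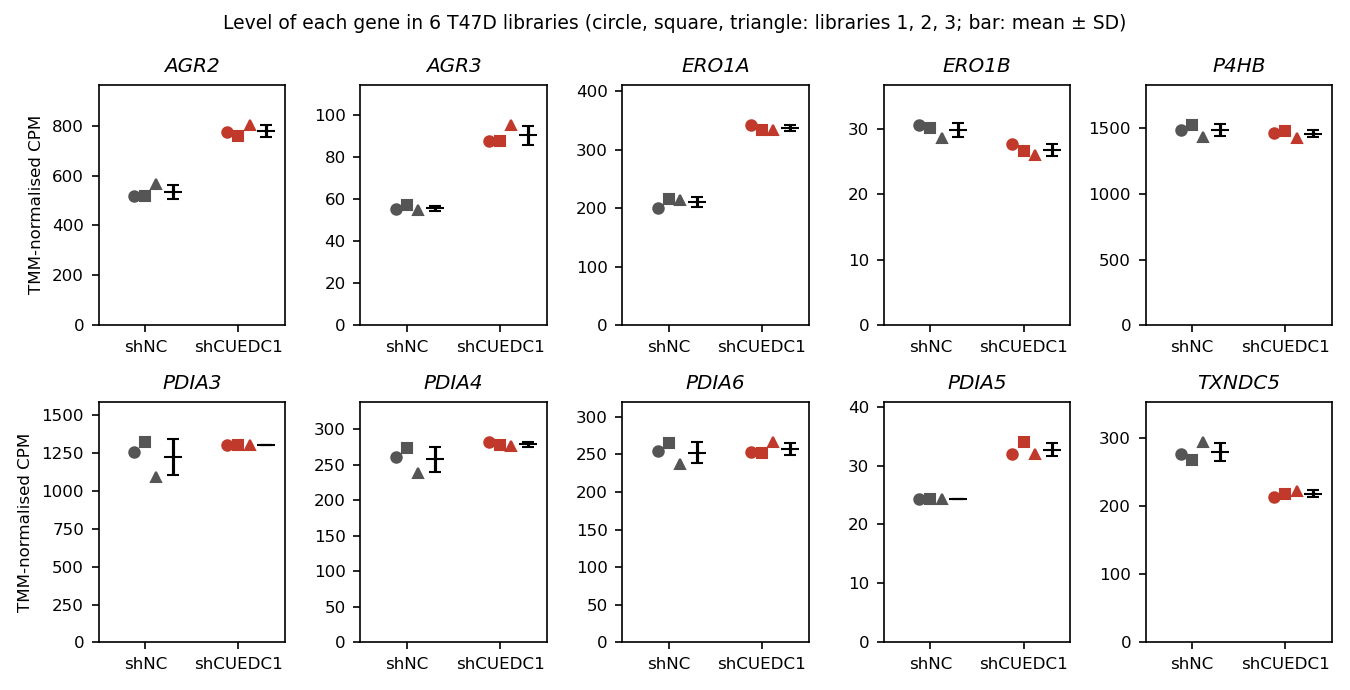
Level of each of the 10 genes in TMM-normalised CPM (y axis, from 0) in the shNC (grey) and shCUEDC1 (red) libraries. Circles, squares and triangles are libraries 1, 2 and 3, and the black bar is the mean with its SD (n = 3). AGR2, AGR3, ERO1A, PDIA5 and, by a small margin, PDIA4 are higher and TXNDC5 and ERO1B lower in every shCUEDC1 library. P4HB, PDIA3 and PDIA6 overlap.

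Among the 7 genes taken by family, 1 rose and 1 fell, where 5.19% of all genes tested were called higher and 4.77% lower. PDIA5 rose and TXNDC5 fell, and both calls held in all 9 other fits and with any 1 library left out. In either direction, 9.96% of all genes tested were called. Non-overlapping groups were seen for 4 of these 7, against 31.3% of all genes tested. PDIA5 and PDIA4 were higher in every shCUEDC1 library, as were 15.7% of all genes tested, and TXNDC5 and ERO1B were lower, as were 15.6%. Without shNC 3, 3 of the 7 were called, PDIA5, TXNDC5 and ERO1B, against 28.1% of all genes tested in that fit.

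PDIA5 (Entrez 10954; chromosome 3 from 123067062 to 123225227, plus strand) encodes an isomerase that has been linked to activation of the stress sensor ATF6. In shNC 1, 2 and 3 it reached 24.4, 24.2 and 24.3 CPM, whereas shCUEDC1 1, 2 and 3 gave 32.0, 34.0 and 32.0 CPM. The controls were almost identical, and every shCUEDC1 library was higher. PDIA5 rose from 24.3 ± 0.0600 to 32.7 ± 1.15 CPM (SD, n = 3 each), a log2 difference of 0.43 (95% interval 0.28 to 0.57, edgeR adjusted p = 0.00369). The controls rest on 481, 481 and 464 reads, whose counting error is larger than an SD of 0.0600 CPM, so that SD understates the uncertainty. The highest adjusted p with 1 library left out was 0.0328, without shCUEDC1 2. In GENCODE, SEC22A overlaps PDIA5 on the same strand, at 40.6 CPM in the controls and 39.3 CPM with CUEDC1 knocked down. It differed by -0.05 (edgeR adjusted p = 0.774). The way of counting is not given, so reads of this pair cannot be told apart with certainty. The same limit holds for other members. In GENCODE, ELL3 overlaps PDIA3 and ATP6V1C2 overlaps PDIA6, both on the opposite strand. The pseudogene RAD17P1 overlaps AGR3 on the same strand, and antisense genes overlap ERO1A and P4HB. This pseudogene and these antisense genes are not among the genes of the deposited table.

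TXNDC5 (Entrez 81567; chromosome 6 from 7881517 to 7910814, minus strand) encodes an isomerase with several thioredoxin domains. It stood at 276, 268 and 295 CPM in shNC 1, 2 and 3 and at 214, 219 and 223 CPM in shCUEDC1 1, 2 and 3. All shCUEDC1 libraries were lower, and shNC 3 was the highest library. TXNDC5 fell from 280 ± 13.7 to 219 ± 4.64 CPM (SD, n = 3 each), a log2 difference of -0.35 (95% interval -0.47 to -0.24, edgeR adjusted p = 0.00234). It was -0.31 without shNC 3 (edgeR adjusted p = 2.16e-07), and the highest adjusted p with 1 library left out was 0.0260, without shCUEDC1 2. GENCODE also holds a readthrough gene, BLOC1S5-TXNDC5, on the same strand, which is not among the genes of the deposited table. How reads shared with it were counted is not given. Per length, TXNDC5 was 7.05, 6.87 and 7.52 times PDIA5 in shNC 1, 2 and 3 and 4.15, 4.00 and 4.33 times in shCUEDC1 1, 2 and 3.

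The windows before the starts of these genes are shown because they are the members taken by family that were called, in opposite directions. Both come from RefSeq (GRCh38.p14), PDIA5 on the plus and TXNDC5 on the minus strand, 5′ to 3′, and capitals mark ACGTG on either strand.
PDIA5 chr3:123066775-123067024: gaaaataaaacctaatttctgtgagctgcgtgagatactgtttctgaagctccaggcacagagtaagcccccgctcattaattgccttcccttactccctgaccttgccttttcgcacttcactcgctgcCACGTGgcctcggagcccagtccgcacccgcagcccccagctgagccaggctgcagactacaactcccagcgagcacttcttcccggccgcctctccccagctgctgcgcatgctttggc
TXNDC5 chr6:7910789-7911038: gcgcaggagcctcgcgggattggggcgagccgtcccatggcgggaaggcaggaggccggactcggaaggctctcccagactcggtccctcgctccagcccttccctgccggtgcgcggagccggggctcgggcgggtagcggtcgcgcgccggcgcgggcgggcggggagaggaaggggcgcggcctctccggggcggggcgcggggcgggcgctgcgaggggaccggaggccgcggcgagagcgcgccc
PDIA5 holds the palindrome that reads as ACGTG on both strands, between 120 and 115 bases before the start, and TXNDC5 holds none. ACGTG was found in 3 of the 9 members with a promoter in the table, ERO1A, PDIA4 and PDIA5, against 18.5% of all promoters. The TXNDC5 window is 80.8% G and C and the PDIA5 window 58.4%. None of these 9 windows holds the unfolded protein response element TGACGTGG, which contains ACGTG and occurs in 0.612% of promoters.

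The remaining isomerases, P4HB, PDIA3, PDIA4 and PDIA6, were not called. P4HB (Entrez 5034; chromosome 17 from 81843159 to 81860694, minus strand) was at 1492, 1529 and 1437 CPM in the controls and at 1466, 1481 and 1431 CPM with CUEDC1 knocked down. The P4HB groups overlapped, with a log2 difference of -0.03 (interval of 95% confidence -0.13 to 0.07, edgeR adjusted p = 0.768). PDIA3 (Entrez 2923; chromosome 15 from 43746392 to 43773279, plus strand) was at 1257, 1324 and 1091 CPM in the controls and at 1306, 1302 and 1302 CPM with CUEDC1 knocked down. The lowest PDIA3 library was shNC 3, at -0.24 on the log2 scale against the mean of shNC 1 and 2, and the other 5 lay close together. Its difference was 0.09 (95% interval -0.06 to 0.24, edgeR adjusted p = 0.444), and 0.02 without shNC 3 (edgeR adjusted p = 0.769). GENCODE lists 2 pseudogenes of PDIA3, PDIA3P1 and PDIA3P2, and how reads shared with them were counted is not given.

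PDIA4 (Entrez 9601; chromosome 7 from 149003062 to 149028641, minus strand) was at 262, 273 and 239 CPM in the controls and at 282, 277 and 276 CPM with CUEDC1 knocked down. All shCUEDC1 libraries were above the controls, shNC 2 only by a small margin. PDIA4 differed by 0.11 (95% interval -0.01 to 0.23, edgeR adjusted p = 0.234), and by 0.06 without shNC 3 (edgeR adjusted p = 0.234). PDIA6 (Entrez 10130; chromosome 2 from 10783391 to 10837977, minus strand) was at 254, 265 and 237 CPM in the controls and at 253, 251 and 266 CPM with CUEDC1 knocked down. Its groups overlapped, and the difference of 0.03 (95% interval -0.09 to 0.15, edgeR adjusted p = 0.811) turned to -0.01 without shNC 3. None of the intervals of P4HB, PDIA3, PDIA4 and PDIA6 reaches those of PDIA5 or TXNDC5, which begin at 0.28 and end at -0.24.

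**Figure D3:**
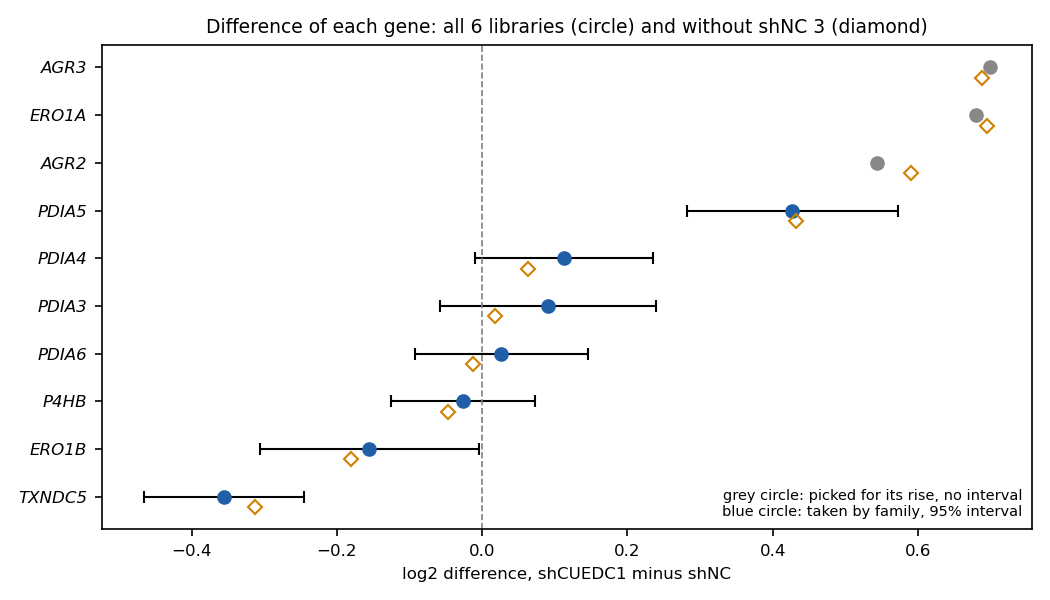
Log2 difference (shCUEDC1 minus shNC, x axis) of each gene with all 6 libraries (circles) and without shNC 3 (open diamonds). Blue circles carry the 95% interval of the edgeR fit, and grey circles mark the genes picked for their rise, which carry no interval. PDIA5 at 0.43 and TXNDC5 at -0.35 lie clear of 0, and the intervals of PDIA4, PDIA3, PDIA6 and P4HB include 0.

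Levels of different genes can be set in order only per length. In shNC the order by mean FPKM was P4HB (625 ± 19.1), PDIA3 (339 ± 32.9), AGR2 (327 ± 16.9), PDIA6 (114 ± 6.30), TXNDC5 (97.3 ± 4.86), PDIA4 (95.3 ± 6.38), AGR3 (81.4 ± 1.68), ERO1A (41.2 ± 1.69), PDIA5 (13.6 ± 0.0404) and ERO1B (5.85 ± 0.260), each with its SD over 3 libraries. The libraries of PDIA3 and AGR2 overlapped in shNC, and so did those of TXNDC5 and PDIA4. In shCUEDC1 the order was P4HB (606 ± 13.6), AGR2 (470 ± 12.4), PDIA3 (357 ± 1.73), AGR3 (131 ± 5.85), PDIA6 (114 ± 3.18), PDIA4 (102 ± 1.37), TXNDC5 (75.2 ± 1.40), ERO1A (65.3 ± 1.06), PDIA5 (18.1 ± 0.704) and ERO1B (5.23 ± 0.170), and no neighbours in that order overlapped. AGR3 thus stood below PDIA6, PDIA4 and TXNDC5 in every shNC library and above them in every shCUEDC1 library.

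The summed FPKM of the 10 genes was 1738, 1785 and 1693 in shNC 1, 2 and 3 and 1943, 1940 and 1948 in shCUEDC1 1, 2 and 3. The sum over the 6 isomerases overlapped between the groups, at 1294, 1337 and 1219 in shNC and 1275, 1283 and 1258 in shCUEDC1. AGR2 made up 18.3%, 17.7% and 20.4% of the 10-gene sum in the shNC libraries and 24.2%, 23.6% and 24.8% in the shCUEDC1 libraries. P4HB made up 35.9% ± 0.175 in shNC and 31.2% ± 0.766 in shCUEDC1 (SD, n = 3 each). The larger sum in shCUEDC1 therefore lay in AGR2, AGR3 and ERO1A, the genes picked for their rise.

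**Figure D4:**
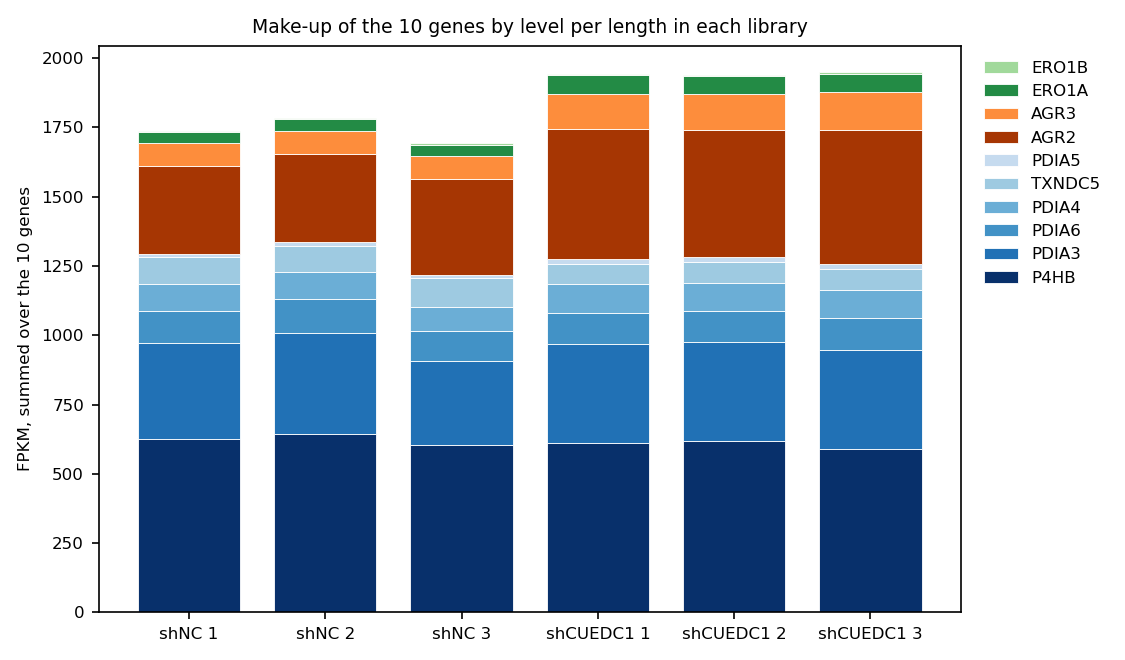
FPKM of the 10 genes (y axis, from 0), stacked for each of the 6 libraries. The 6 isomerases (blues) sum to between 1219 and 1337 in every library, and the AGR genes (browns) and ERO1 genes (greens) add more in each shCUEDC1 library than in any shNC library.

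Genes that act beside these 10 were counted in 7 lists drawn up by function. Over all genes tested, 9.96% were called, 5.19% higher and 4.77% lower. The further members of the isomerase family, with thioredoxin folds in the lumen or membrane of the endoplasmic reticulum, were 12 tested, of which 1 was called, higher, with a median log2 difference of -0.04 against -0.004 over all genes tested. It was ERP29, a redox-inactive chaperone of this family, which rose from 169 ± 3.18 to 204 ± 12.4 CPM (SD, n = 3 each; log2 difference 0.27, edgeR adjusted p = 0.0135). That call was lost without shNC 1, shCUEDC1 2 or shCUEDC1 3 (adjusted p = 0.0633, 0.0715 and 0.0687). TMX2, a membrane-bound member with the highest level per length in the list, was not called (log2 difference -0.10, edgeR adjusted p = 0.202). Other redox enzymes of the endoplasmic reticulum, including peroxiredoxin, quiescin oxidases and selenoproteins, gave 0 calls among 11 tested. That held by edgeR, DESeq2, limma-voom and limma-trend, and the median was -0.11. At an unadjusted edgeR p below 0.05, 1 of them passed, and the share of all genes tested that did is not given here. PRDX4, a peroxiredoxin that takes up peroxide made by the ERO1 enzymes, differed by -0.04 (95% interval -0.17 to 0.10), and the selenoprotein SELENOF by -0.05 (95% interval -0.15 to 0.05). Without shNC 3, 5 of these 11 enzymes were called lower, where 13.8% of all genes tested were.

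Chaperones and folding factors of the endoplasmic reticulum had 1 rise and 2 falls among 23 tested, with a median of 0.01. Of all genes tested, 5.19% were called higher and 4.77% lower. CALR, calreticulin, the lectin that works with PDIA3, rose from 1496 ± 163 to 1795 ± 18.6 CPM (SD, n = 3 each; log2 difference 0.26, edgeR adjusted p = 0.0468). It was at 1514, 1649 and 1326 CPM in the controls and at 1815, 1793 and 1778 CPM with CUEDC1 knocked down, and its difference was 0.19 without shNC 3, the lowest library. FKBP9, a prolyl isomerase, fell by 0.31 and DNAJB9, a co-chaperone of HSPA5, fell by 0.26 (edgeR adjusted p = 0.00898 and 0.0249). For CALR and DNAJB9 the call was lost when shNC 1 or any 1 of the shCUEDC1 libraries was left out (adjusted p = 0.116 to 0.163 and 0.0671 to 0.135), and FKBP9 without shCUEDC1 2 or 3 (0.0642 and 0.0614). By limma-trend on log2(FPKM + 0.5), CALR was not called either (adjusted p = 0.0782). HSP90B1, the abundant lumenal HSP90, differed by 0.07 (95% interval -0.02 to 0.17). Without shNC 3, 2 of the 23 were called higher and 4 lower, where 14.3% and 13.8% of all genes tested were.

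Sensors and transcription factors of the unfolded protein response had 1 call among 13 tested, lower, with a median of -0.14. Of all genes tested, 4.77% were called lower. CREB3L2, a membrane-bound transcription factor, fell by 0.33 (edgeR adjusted p = 0.0343), and the call was lost without shNC 2 (0.0529) or any 1 shCUEDC1 library (0.124 to 0.142). It was also lost with the replicate number as a block (edgeR adjusted p = 0.0506), where 1 other gene of the list was called, higher, and by limma-trend on log2(FPKM + 0.5) (adjusted p = 0.0507). XBP1, the factor spliced by ERN1 and the most abundant gene of this list per length, was at 1528, 1624 and 1685 CPM in the controls and at 1752, 1736 and 1823 CPM with CUEDC1 knocked down. XBP1 differed by 0.14 (edgeR adjusted p = 0.123) and was called without shNC 3, at 0.17 (edgeR adjusted p = 0.00112). In that fit, 3 of the 13 were called higher and 3 lower, where 14.3% and 13.8% of all genes tested were. ATF4, the translation-controlled factor of the stress response, differed by -0.01 (95% interval -0.11 to 0.10). Gene-level counts do not show XBP1 splicing.

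Partners of P4HB and PDIA3 and the receptors that return KDEL-tailed proteins to the endoplasmic reticulum gave 0 calls among 6 tested by edgeR, limma-voom and limma-trend, and 1 by DESeq2, with a median of -0.09. At an unadjusted edgeR p below 0.05, 1 gene passed, lower, and the share of all genes tested that did is not given here. It was P4HA1, a catalytic subunit that pairs with P4HB in collagen prolyl hydroxylase, at -0.29 (edgeR adjusted p = 0.0656), named after its value was seen. KDELR2 and KDELR1 differed by -0.11 and -0.08 (edgeR adjusted p = 0.227 and 0.507). Without shNC 3, 4 of the 6 genes of this list were called lower, where 13.8% of all genes tested were.

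Mucins, heavily glycosylated secretory and membrane proteins that include known clients of AGR2, had 1 rise among 4 tested. Of all genes tested, 5.19% were called higher. The median log2 difference of the 4 mucins was 0.03, with 2 above 0 and 2 below. MUC1, a membrane mucin of luminal epithelium, rose from 591 ± 11.0 to 801 ± 22.7 CPM (SD, n = 3 each; log2 difference 0.44, edgeR adjusted p = 4.10e-04), with no overlap and with the call held when any 1 library was left out. MUC20 differed by 0.25 (edgeR adjusted p = 0.232), and without shNC 3 by 0.39 with a call (edgeR adjusted p = 0.00254). The other 8 mucins in the table did not pass the filter on low counts.

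Transcription factors known for AGR2 or ERO1A had 1 rise among 7 tested, with a median of 0.17. Of all genes tested, 5.19% were called higher. SPDEF, an ETS factor of secretory epithelium, was at 160, 165 and 162 CPM in the controls and at 198, 204 and 208 CPM with CUEDC1 knocked down. SPDEF rose by 0.33 (95% interval 0.23 to 0.43, edgeR adjusted p = 0.00209), and the call held with any 1 library left out (highest adjusted p 0.0232). FOXA1, a pioneer factor of luminal cells that is also among the luminal markers above, differed by 0.17 with no overlap between the groups, but was not called (edgeR adjusted p = 0.0611), whereas DESeq2 called it (adjusted p = 0.0421). Without shNC 3, 5 of the 7 were called higher and 1 lower, where 14.3% and 13.8% of all genes tested were.

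**Figure D5:**
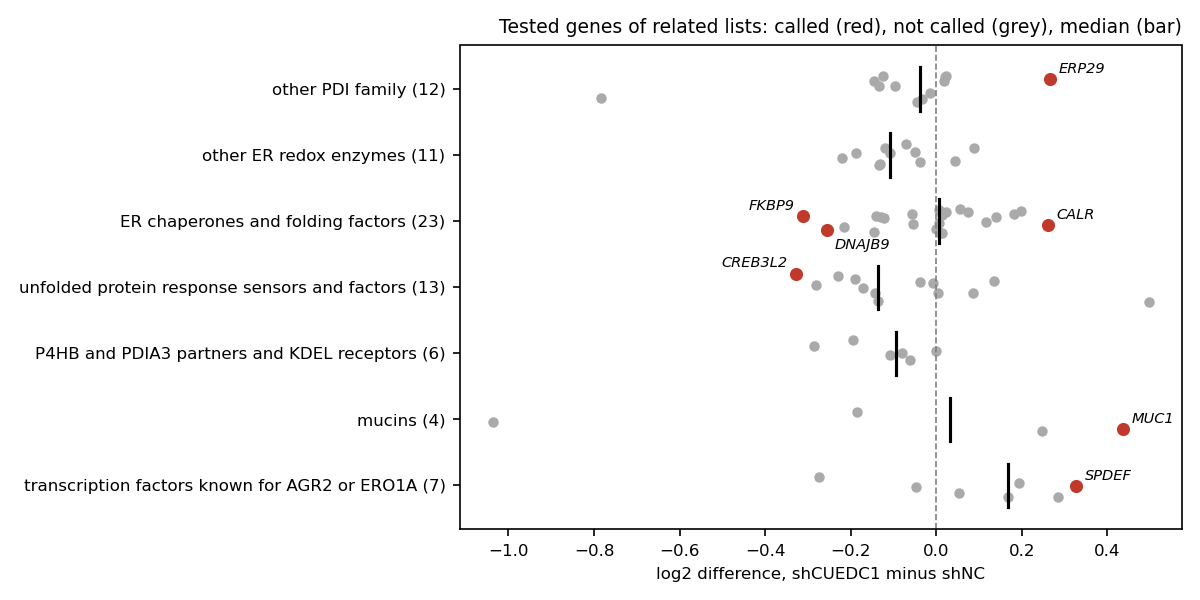
Log2 difference (shCUEDC1 minus shNC, x axis) of every tested gene of the 7 related lists, with the number tested in parentheses. Red points are called and named, grey points are not called, and the black bar is the list's median. The medians lie between -0.14 and 0.17, and the called genes are ERP29, CALR, FKBP9, DNAJB9, CREB3L2, MUC1 and SPDEF.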

How the data were processed

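Poly(A) RNA of 6 T47D libraries was sequenced after random-primed cDNA synthesis, per the labels' protocols. The authors deposited 1 table with estimated counts that are fractional (21.8% to 24.7% of values whole), FPKM, TPM and a signal of counts divided by a size factor, per the file headers. The submitters' processing notes name GRCh38.p13. Which aligner and counter were used, and whether reads were counted by strand, is not given in the sources used here. Deposited FPKM is scaled to gene length and library size. The authors' TPM, their signal and their group means, a score rounded to whole numbers, were not used for results.

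Estimated counts were rounded, filtered with filterByExpr (minimum count 10), and scaled by TMM. Groups were compared in R 4.3.3 by the robust quasi-likelihood test of edgeR 4.0.16, and p-values were adjusted over all 13824 genes tested (Benjamini-Hochberg). Called means an adjusted p below 0.05. The procedure was tested on simulated data, where it recovered most changed genes but made more false calls than the nominal share, so calls near the threshold are the least certain. Alternatives were RLE scaling, filters, DESeq2 1.42.0, limma 3.58.1 (voom, and trend on log2(FPKM + 0.5) or log2(FPKM + 0.1)), a replicate block, offsets for GC content and length (GENCODE v29), and each library left out.

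The members and lists were chosen with earlier results of these data known. Named list genes are up to 4 called genes with the smallest p and the 2 with the highest FPKM per list. Neighbours are the 3 nearest protein-coding genes of the table on each side. Promoters are RefSeq windows (GRCh38.p14), matched by symbol for 9 of 10 members.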

Additional observations from a re-analysis of the deposited data

How the results depend on the processing

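The 7 genes taken by family gave 2 calls, PDIA5 higher and TXNDC5 lower, in each of the 9 other fits, and between 2 and 3 calls with 1 library left out, the added one being ERO1B without shNC 3. The count over the whole table was 1377 with all libraries and between 468 and 3925 with 1 left out. The highest count came without shNC 3, and without shNC 1 it was 688, without shCUEDC1 1, 2 and 3 it was 513, 468 and 519, where fewer libraries enter the fit. With 1 library left out, calls ranged from 0 to 2 for the further isomerases, 0 to 5 for other redox enzymes, 0 to 6 for chaperones, 0 to 6 for the unfolded protein response list, 0 to 4 for partners and KDEL receptors, 1 to 2 for mucins and 1 to 6 for the transcription factors. The upper end was in each case the fit without shNC 3, in which 28.1% of all genes tested were called, 14.3% higher and 13.8% lower. In that fit, the 6 calls among 23 chaperones were 2 higher and 4 lower. The 6 calls among 13 genes of the unfolded protein response list were 3 higher and 3 lower. With offsets for GC content and length, other redox enzymes gave 1 call, the unfolded protein response list 3 and the transcription factors 3. DESeq2 gave 2, 1 and 3 calls for the unfolded protein response list, the partners and the transcription factors. The unfolded protein response list gave 2 calls with no filter and 0 by limma-trend on log2(FPKM + 0.5). The cause of these shifts was not tested.

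Among the 10 members and the genes named from the lists, signs turned for PDIA6, PRDX4 and ATF4, and the cause was not tested. The difference of PDIA6 ran from -0.0124 without shNC 3 to 0.0650 without shNC 2, and that of PRDX4 from -0.0969 without shNC 3 to 0.00157 without shNC 1. That of ATF4 was 0.000179 with no filter, and it ran from -0.0319 without shNC 1 to 0.0154 and 0.0155 without shNC 2 and without shCUEDC1 1, with 0.00156 without shNC 3. No pairing by replicate number was seen in the values. Deviations of same-numbered libraries correlated at -0.01, -0.05 and -0.02, and no library correlated best with its own number. Such correlations cannot show whether the libraries were prepared in pairs. With the number as a block, 1117 genes were called in all and 2 of the 7 genes taken by family, and each list kept its number of calls. The unfolded protein response list did not keep its direction, since its 1 call was lower without the block and higher with it. The members rest on 464 to 30345 reads per library, so counting error weighs most on the genes with the fewest reads, ERO1B and PDIA5.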

Other observations

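Of the tested genes, 10142 averaged 10 CPM or more. Those whose level over the 6 libraries ran closest to AGR2 were CLU, the secreted chaperone clusterin, POF1B, an actin-binding epithelial protein, and NUCB2, a calcium-binding secretory protein. Likeness is the root mean square difference of log2 CPM after each gene was centred on its own mean, and it was 0.0408, 0.0415 and 0.0445. CLU averaged 1604 CPM in the controls and 2251 CPM with CUEDC1 knocked down, and NUCB2 118 and 166 CPM. For AGR3 the closest were CPQ, SLC29A1, a nucleoside transporter, and C17orf58, at 0.0489, 0.0574 and 0.0577, and ERO1A was the fifth closest, at 0.0598. For ERO1A the closest were LRRK2, a kinase, APH1B, a gamma-secretase subunit, and SLC40A1, the iron exporter ferroportin, at 0.0374, 0.0383 and 0.0497. SLC40A1 averaged 523 CPM in the controls and 807 CPM with CUEDC1 knocked down. PDIA5 was 65th closest to AGR2, and TXNDC5 stood at place 9729 of 10142. These likenesses rest on the same 6 libraries and include the step between groups, and they carry no test.

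The nucleotide sequences of the 10 members share no long exact runs. The longest exact run shared by the longest protein-coding GENCODE v29 transcripts of any pair was 22 bases, between PDIA4 and TXNDC5, and 20 bases between ERO1A and ERO1B.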
